A study of Homo sapiens with 8 samples.

Results

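The replication-dependent histone genes encode the core histones H2A, H2B, H3 and H4 and the linker histones H1-1 to H1-6 that are made in bulk while DNA is copied. They were taken as every transcript cluster of the array whose annotated symbols all begin with H1-1 to H1-6, H2AC, H2BC, H3C or H4C. This gave 54 of 17881 clusters, which cover 58 genes: 6 clusters of H1, 12 of H2A, 15 of H2B, 9 of H3, 11 of H4 and 1 that carries both an H2A and an H3 symbol. A further cluster, annotated with H2BC18, H3C13 and H2BP1, was left out because the last symbol does not match, and 4 of the 54 clusters carry 2 symbols each (H2AC14;H2AC13, H3C4;H2AC7, H2BC6;H2BC9 and H2BC12;H2BC12L).

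Expression was measured on 8 exon arrays of cells labelled RS4;11, a human line of B-cell precursor acute lymphoblastic leukaemia with an MLL fusion, with 2 arrays in each of 4 groups. Cells transduced with a control shRNA vector or with a BTG1 shRNA received either vehicle or the synthetic glucocorticoid prednisolone for 8 h. BTG1 is an antiproliferative gene of the BTG/TOB family. The sources used here do not give the prednisolone dose, the promoter of the vector, the number of clones or whether arrays of a group stand for separate cultures. P-values therefore cover no more than the spread from array to array, which may be technical.

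Replication-dependent histone genes lie in dense groups on the genome, mostly on chromosome 6 and in part on chromosome 1, and many share a short promoter with a partner that runs the other way. Their mRNAs as a rule end in a stem-loop in place of a poly(A) tail, are made in S phase and are degraded when DNA synthesis stops. Several genes encode the same or nearly the same protein, so that probes of a cluster can bind RNA of a paralogue, and the extent of this was not tested. Values are log2 expression levels, on which a difference of 1 is a 2-fold change. Probes differ between clusters, so the levels of 2 clusters do not compare amounts of RNA, and percentiles and the highest mean of a class only place a signal on the array. Histone values ran from 2.32 to 12.78: on all 8 arrays 18 of the 54 clusters lay above the 90th percentile of the array and 10 below its median.

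The arrays labelled BTG1 shRNA differed from the control arrays in lineage markers as well as in the targeted gene. The cluster of BTG1, which also carries the symbol LINC01619, differed by -2.06 under vehicle and by -2.64 under prednisolone (SE 0.20 for both, adjusted p = 0.000388 and 0.000107). Of 11 measured T-cell markers 10 were higher in both treatments, and their mean level was 4.01 to 4.68 on the control arrays and 8.76 to 9.08 on the others. Of 11 measured B-cell markers 10 were lower under vehicle and 9 under prednisolone, with a mean level of 8.07 to 8.48 against 3.96 to 4.20. CD3D, a chain of the T-cell receptor complex, differed by 8.10 (SE 0.17, adjusted p = 3.02e-06) under vehicle, and CD79A, a chain of the B-cell receptor complex, by -5.03 (SE 0.17, adjusted p = 7.32e-06). NR3C1, the glucocorticoid receptor, differed by -2.53 (SE 0.28, adjusted p = 0.000733). On the 4 arrays labelled BTG1 shRNA these markers therefore go against a B-lineage label. In every comparison between the shRNAs the shRNA and this lineage difference cannot be told apart, nor, in bulk RNA, can fewer cells of a type and less RNA per cell. Of 8 myeloid markers 1 was lower under vehicle and 0 were called under prednisolone (limma). At an unadjusted p below 0.05 there were 2 and 0 of them, against 5021 and 4908 of all 17881 clusters. Of 6 erythroid and platelet markers 1 was lower in each treatment, and of 10 stromal and epithelial markers 2 were higher in each.

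The promoters of the 4 genes below are shown because these genes gave the largest differences between the shRNAs under prednisolone. Each is the RefSeq sequence (GRCh38.p14) of the 250 bases before the start of the gene, read 5′ to 3′ on the gene's strand. Capitals mark matches on either strand to TATAAA (the TATA box), CCAAT (the CCAAT box, bound by NF-Y) and ATTTGCAT (the octamer bound by POU2F1 in H2B promoters). No matches overlap. H2BC3 lies at chr6:26043714-26043963 on the minus strand and H3C3 at chr6:26045134-26045383 on the plus strand. The H2AC8 window, chr6:26216671-26216920 on the plus strand, also holds the start of H2BC8, which runs the other way, and the H2BC26 window, chr1:228457853-228458102 on the plus strand, holds the start of H2AC25 in the same manner.
H2BC3: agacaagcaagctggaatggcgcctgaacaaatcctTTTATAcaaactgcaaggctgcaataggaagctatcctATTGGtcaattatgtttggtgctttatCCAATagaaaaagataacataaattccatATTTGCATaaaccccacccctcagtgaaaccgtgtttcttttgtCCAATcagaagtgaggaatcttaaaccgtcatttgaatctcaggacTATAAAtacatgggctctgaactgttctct
H3C3: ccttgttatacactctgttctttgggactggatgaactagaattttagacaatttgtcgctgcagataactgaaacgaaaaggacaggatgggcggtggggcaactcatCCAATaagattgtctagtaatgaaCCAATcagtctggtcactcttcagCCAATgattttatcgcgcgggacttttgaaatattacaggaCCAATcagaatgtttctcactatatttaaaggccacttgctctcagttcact
H2AC8: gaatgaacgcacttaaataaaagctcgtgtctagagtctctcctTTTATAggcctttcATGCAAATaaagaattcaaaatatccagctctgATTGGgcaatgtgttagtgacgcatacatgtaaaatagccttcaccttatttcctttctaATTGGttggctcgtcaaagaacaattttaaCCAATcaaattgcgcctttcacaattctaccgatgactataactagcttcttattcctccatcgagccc
H2BC26: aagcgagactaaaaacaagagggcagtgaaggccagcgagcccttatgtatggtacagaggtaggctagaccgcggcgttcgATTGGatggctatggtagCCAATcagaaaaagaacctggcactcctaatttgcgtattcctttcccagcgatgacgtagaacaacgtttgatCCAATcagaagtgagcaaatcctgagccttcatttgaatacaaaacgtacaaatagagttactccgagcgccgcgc
The window of H2BC3 holds 2 matches to the TATA box, 3 to the CCAAT box and 1 to the octamer, and that of H2AC8 holds 1, 3 and 1. In the H2AC8 window the TATA match lies 206 bases before the start and the octamer match 192, both on the opposite strand. Both are nearer the start of H2BC8, which is 233 bases from that of H2AC8. In the H2BC3 window the TATA match farther from the start is also on the opposite strand. The window of H3C3 has 4 CCAAT matches and that of H2BC26 has 3. Neither has a match to the other motifs, which says only that those letters are not in the window. A window was found for 52 of the 58 genes. TATAAA was in 63.5% of the 52 windows against 11.1% of all 27305 windows of the same length, CCAAT in 88.5% against 33%, and the octamer in 46.2% against 1.66%. By class, CCAAT was in all windows of H1, H2A, H2B and H3 and in 3 of 9 of H4. The octamer was in 10 of 13 windows of H2A and 13 of 16 of H2B, but in 1 of 8 of H3 and in 0 of H1 and H4. Windows of divergent partners overlap and both strands were searched, so 1 match can count for an H2A gene and for its H2B partner. The windows are therefore not all separate sequences. A match is a description of the sequence and does not show that a factor binds there.

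Between the shRNAs a small set of histone clusters differed, some by more than 4 on the log2 scale and in both directions, while most of the others lay within 1 of zero. Under vehicle 4 of the 54 clusters were higher and 9 lower on the arrays labelled BTG1 shRNA at an adjusted p below 0.05 (limma, Benjamini-Hochberg over all clusters), that is 7.41% and 16.7%. Over all clusters the same test called 14.7%, of which 8.46% higher and 6.21% lower. Under prednisolone 2 were higher and 10 lower (3.7% and 18.5%), against 17.5% of all clusters, 10% higher and 7.51% lower. Leaving out the 24 histone clusters with a value that starts with 1, whose decimal point was put back by the rule alone, left 6 calls under vehicle and 4 under prednisolone. The fit was the same, so these counts are smaller only because clusters were taken out. The 2 comparisons use different arrays, and 10 clusters were called in both, each with the same sign: 10 of the 13 called under vehicle (76.9%) and 10 of the 12 called under prednisolone (83.3%). Over all clusters 1857 were called in both with the same sign, 70.8% of those called under vehicle and 59.3% of those called under prednisolone, and all calls share 1 estimate of the spread over the 8 arrays. They are H2BC3, H3C3, H2AC8, H2BC8, H3C6, H4C6, H3C7 and H2AC16, all lower, and H2AC25 and H2BC26, both higher.

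**Figure D1:**
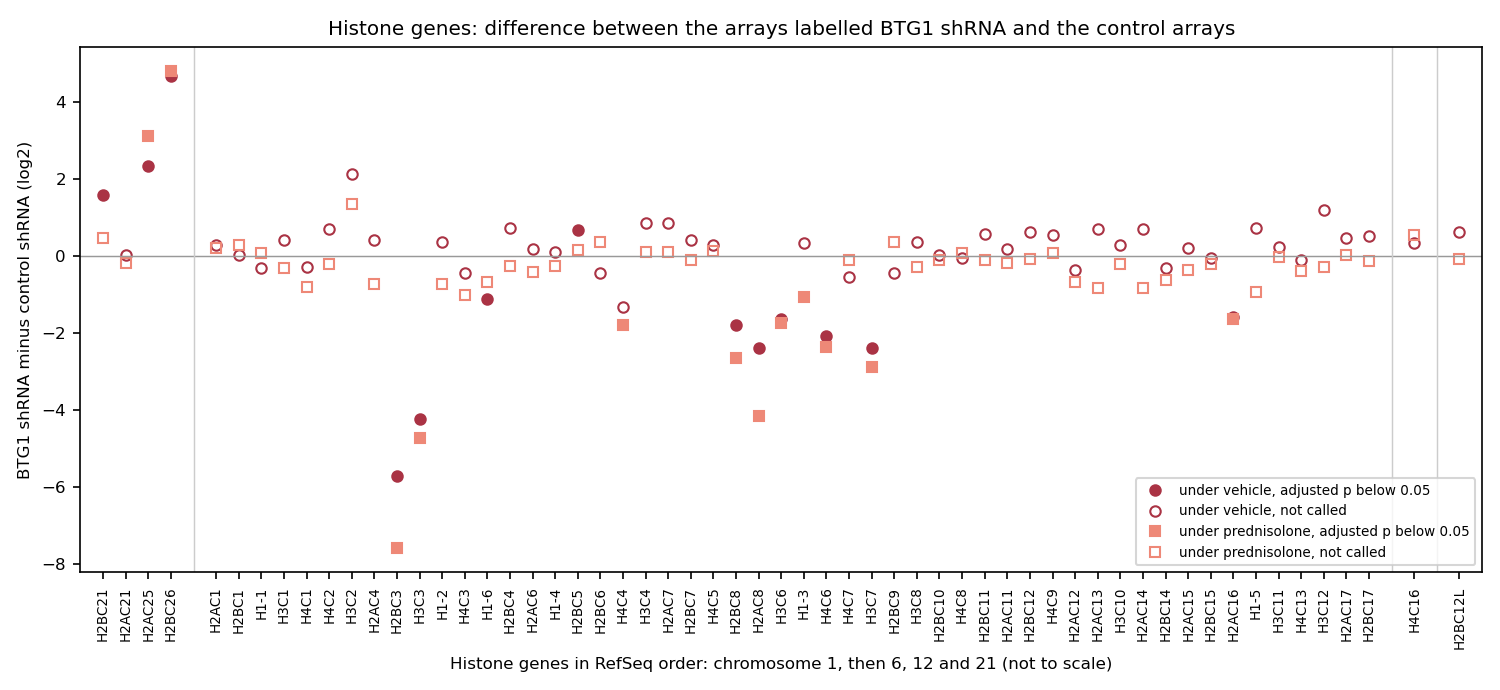
The difference between the arrays labelled BTG1 shRNA and the control arrays (log2, vertical axis) for each histone gene in RefSeq order along chromosomes 1, 6, 12 and 21 (not to scale), with 1 marker for each treatment; filled markers have an adjusted p below 0.05. Most markers lie within 1 of zero, while H2BC3 with H3C3 and 5 of the 7 genes from H2BC8 to H3C7 lie below -1 in both treatments and H2AC25 with H2BC26 above 2; genes of a shared cluster have the same value.

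The largest differences fell on a pair of neighbours on chromosome 6. H2BC3 encodes an H2B. In the control cells its level was 7.54 and 9.07 under vehicle and 9.62 and 10.56 under prednisolone. On the arrays labelled BTG1 shRNA it was 2.41 and 2.79 under vehicle and 2.36 and 2.67 under prednisolone. All 4 control arrays were thus well above all 4 others, and on the latter H2BC3 lay between percentiles 0.271 and 9.36 of all clusters, among the lowest values of the array. The difference was -5.70 under vehicle and -7.58 under prednisolone (SE 0.51 each, adjusted p = 0.000265 and 6.39e-05). No detection calls were used, so the level at which H2BC3 reaches background is unknown and no fold is given for it.

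H3C3, an H3 gene, is the next protein-coding gene on chromosome 6. It was at 11.41 and 11.19 under vehicle and 11.32 and 11.31 with prednisolone in the control cells, and at 7.02, 7.13, 6.28 and 6.92 on the arrays labelled BTG1 shRNA. The control arrays lay within a narrow band, and the other 4 lay between percentiles 62.9 and 72.9 of all clusters and so were not at the bottom of the scale. H3C3 differed by -4.23 (SE 0.24, adjusted p = 3.17e-05) and -4.72 (SE 0.24, adjusted p = 2.01e-05). The genes on either side of the pair were not called: H2AC4 differed by 0.41 under vehicle and -0.71 under prednisolone, and H1-2 by 0.38 and -0.71.

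A second stretch on chromosome 6 holds H2BC8, H2AC8, H3C6, H1-3, H4C6, H4C7 and H3C7 in this order, with no other protein-coding gene between them, and 5 of these 7 clusters were lower in both treatments. Its ends were drawn at clusters called lower, so this share describes the calls and is not a test of the region. H2AC8, an H2A gene, was at 9.98, 10.23, 10.85 and 11.18 on the control arrays (vehicle, then prednisolone) and at 7.86, 7.56, 6.15 and 7.56 on the arrays labelled BTG1 shRNA. Its difference was -2.39 under vehicle and -4.16 under prednisolone (SE 0.42 each, adjusted p = 0.00739 and 0.000417). The 2 sets of 4 arrays did not overlap for H2AC8 or for any of the other 4. These clusters were picked by their calls on the same arrays, so this is no further support.

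H2BC8, the H2B partner that starts 233 bases from H2AC8, was at 6.45, 6.91, 6.88 and 7.23 on the control arrays and at 5.02, 4.77, 3.98 and 4.85 on the others, a difference of -1.78 (SE 0.32, adjusted p = 0.00809) and of -2.64 (SE 0.32, adjusted p = 0.00103). On the BTG1 shRNA arrays it lay between percentiles 28.9 and 46.2, below the median cluster. Thus both partners of this divergent pair were lower. H3C6, an H3 gene, was at 5.33, 5.08, 5.14 and 5.31 against 3.65, 3.51, 3.37 and 3.63, and differed by -1.63 (SE 0.19, adjusted p = 0.00108) and -1.73 (SE 0.19, adjusted p = 0.000702). Its values on the BTG1 shRNA arrays, at percentiles 18 to 26.2, are also dim.

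H4C6, which encodes the H4 protein shared by most H4 genes, was at 10.33, 10.27, 10.38 and 10.70 on the control arrays and 8.16, 8.30, 7.45 and 8.89 on the others. It differed by -2.07 (SE 0.41, adjusted p = 0.0137) and -2.37 (SE 0.41, adjusted p = 0.00622). H3C7, an H3 gene, was at 10.79, 10.39, 11.00 and 11.05 against 8.10, 8.30, 7.42 and 8.90, and differed by -2.39 (SE 0.43, adjusted p = 0.00852) and -2.87 (SE 0.43, adjusted p = 0.00305). For both genes the lowest of the 8 values was on the first BTG1 shRNA prednisolone array. H4C7, the dim member of the stretch, was at 3.77, 3.22, 3.05 and 3.22 against 2.77, 3.16, 2.90 and 3.16 and was not called (-0.53 and -0.10).

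H1-3, a linker histone within the stretch, was called only with prednisolone. In the control cells it was at 8.82 and 8.77 under vehicle and 9.38 and 9.78 with prednisolone. On the arrays labelled BTG1 shRNA it was at 9.27 and 8.98, then 8.14 and 8.92. The difference was 0.33 under vehicle and, with prednisolone, -1.05 (SE 0.29, adjusted p = 0.0439), and the latter call was lost in 8 of 14 alternatives, among them without the first BTG1 shRNA prednisolone array, either BTG1 shRNA vehicle array or either control prednisolone array. Whether the 2 differences of H1-3 differ is the test of the difference of effects, which gave -1.37 and did not pass (adjusted p = 0.405). Under vehicle, the calls of H2AC8 and H2BC8 were lost without the second BTG1 shRNA vehicle array (adjusted p = 0.0582 and 0.0677), that of H3C7 without the first (adjusted p = 0.0562) and that of H4C6 without either of these or the first control vehicle array (adjusted p = 0.0534 to 0.0786). Under prednisolone these 4 calls stayed in all 14 alternatives. The genes that flank the stretch, H4C5 before it and H3C8 after the shared cluster H2BC6;H2BC9, differed by 0.28 and 0.37 under vehicle and were not called.

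**Figure D2:**
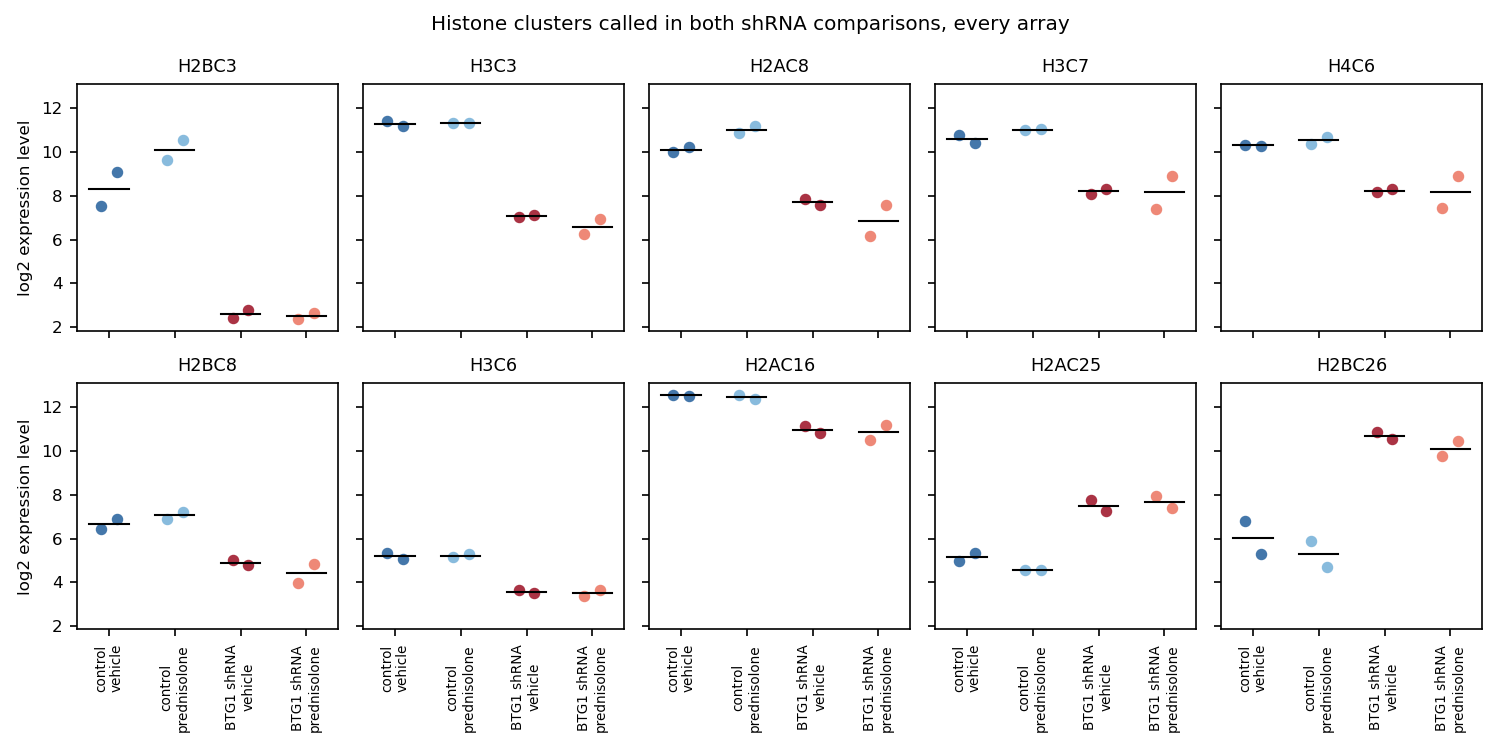
The log2 expression level (vertical axis) on every array of the 10 clusters called in both shRNA comparisons, 1 panel each, with the 4 groups along the horizontal axis 1 point for each array and a line at the group mean. In each panel all 4 arrays labelled BTG1 shRNA lie on one side of all 4 control arrays: below for 8 clusters and above for H2AC25 and H2BC26. The clusters were picked by their calls on these same arrays.

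Away from these stretches, H2AC16 was also lower in both treatments. This H2A gene was at 12.57, 12.50, 12.56 and 12.37 on the control arrays and at 11.13, 10.80, 10.51 and 11.17 on the others, a difference of -1.57 under vehicle and -1.63 under prednisolone (SE 0.25 each, adjusted p = 0.00522 and 0.00369). Its level stayed high on all 8 arrays, and the vehicle call was lost without the second BTG1 shRNA vehicle array (adjusted p = 0.0541). H4C4, an H4 gene, was at 10.09, 10.27, 10.15 and 10.12 against 8.75, 8.99, 7.43 and 9.24. The 2 sets did not overlap, but H4C4 was called only under prednisolone (-1.80, SE 0.50, adjusted p = 0.0447) and not under vehicle (-1.31, adjusted p = 0.135). The call was lost in 10 of 14 alternatives, 7 of which leave out an array: either control vehicle, either control prednisolone or either BTG1 shRNA vehicle array, or the first BTG1 shRNA prednisolone array. H1-6, the linker histone of the testis, was dim throughout, at 4.18, 4.48, 4.36 and 4.19 against 3.33, 3.13, 3.86 and 3.34. It was called under vehicle only (-1.10, SE 0.23, adjusted p = 0.017, against -0.68 and adjusted p = 0.0923), and not with quantile normalization or without either BTG1 shRNA vehicle array (adjusted p = 0.0695 to 0.135).

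The clusters that were higher lie on chromosome 1, except H2BC5. H2AC25 and H2BC26 are adjacent, run in opposite directions and start 230 bases apart. H2BC26 was at 6.78, 5.28, 5.87 and 4.71 on the control arrays and at 10.84, 10.56, 9.76 and 10.45 on the arrays labelled BTG1 shRNA. It went from percentiles 44 to 72.3 of all clusters to 97.7 to 99.3, with a difference of 4.67 under vehicle and 4.81 under prednisolone (SE 0.55 each, adjusted p = 0.00107 and 0.000809). H2AC25 was at 4.99, 5.32, 4.58 and 4.55 against 7.74, 7.25, 7.94 and 7.41, a difference of 2.34 (SE 0.26, adjusted p = 0.000772) and 3.11 (SE 0.26, adjusted p = 0.000171). Both partners were higher on all 4 BTG1 shRNA arrays than on any control array, and both calls held in all 14 alternatives in both treatments.

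H2BC21, an H2B gene in another chromosome 1 group, was at 6.03 and 6.32 under vehicle and 7.02 and 7.15 with prednisolone in the control cells. The arrays labelled BTG1 shRNA gave 7.76 and 7.75, then 7.41 and 7.70. It was called under vehicle (1.58, SE 0.19, adjusted p = 0.00123) and not under prednisolone (0.48, adjusted p = 0.154), where the control arrays were nearer to the others; the control vehicle arrays also enter its prednisolone difference given further on. H2BC5, on chromosome 6, was at 5.33, 5.27, 5.84 and 5.69 against 6.01, 5.92, 5.90 and 5.93. Its vehicle call (0.67, SE 0.16, adjusted p = 0.0333) was lost in 10 of 14 alternatives, among them without any 1 array other than the second control vehicle array, and under prednisolone it differed by 0.15. H2AC21, the neighbour of H2BC21, was the H2A cluster with the highest mean and was at 12.71, 12.61, 12.65 and 12.78 against 12.75, 12.61, 12.41 and 12.65, with overlap.

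Divergent partners, which share a promoter region, were compared with each other. Of 10 gene pairs that start within 300 bases of each other, which make 9 pairs of clusters, the 2 partners' differences under vehicle were -0.06 to 1.01 apart in 8. The exception was H2AC25 with H2BC26, whose differences were 2.33 apart, with both partners higher. H2AC8 with H2BC8 were 0.61 apart, with both lower. For H2AC14, whose cluster also stands for H2AC13, and H2BC14 the differences were 0.71 and -0.30. Under prednisolone the partners of 2 pairs lay well apart: H2AC25 and H2BC26 differed by 3.11 and 4.81, and H2AC8 and H2BC8 by -4.16 and -2.64. Clusters that are not partners were not compared in this way, so small gaps are not shown to be a trait of partners.

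By class, the clusters called lower under vehicle were 1 of 6 for H1, 2 of 12 for H2A, 2 of 15 for H2B, 3 of 9 for H3 and 1 of 11 for H4, and those called higher were 1 for H2A and 3 for H2B. Under prednisolone 1, 2, 2, 3 and 2 were lower and 1 of H2A and 1 of H2B higher. Every called cluster of H1, H3 and H4 was lower, and those of H2A and H2B went both ways. The clusters with the highest mean of the other classes were not called. H1-4 was at 12.33, 12.38, 12.56 and 12.53 on the control arrays and 12.59, 12.33, 12.10 and 12.50 on the others, and H2BC7 at 11.90, 11.94, 12.15 and 12.16 against 12.36, 12.34, 11.81 and 12.29. H3C11 was at 12.26, 12.23, 12.43 and 12.62 against 12.54, 12.41, 12.33 and 12.68. The control arrays and the others overlap for these 3 genes. H4C3 was at 12.24, 12.37, 12.46 and 12.72 against 11.81, 11.92, 11.05 and 12.09, with no overlap. It differed by -0.44 under vehicle and -1.02 (adjusted p = 0.0711) under prednisolone.

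The other 39 clusters were called in neither comparison. Their differences ran from -0.53 to 2.13 under vehicle (median 0.29) and from -1.02 to 1.35 under prednisolone (median -0.19), and 37 of the 39 lay within 1 of zero in each. H3C2, an H3 gene, was the highest in both. It was at 7.58, 7.58, 7.66 and 7.73 on the control arrays and at 9.24, 10.18, 7.82 and 10.27 on the BTG1 shRNA arrays, so the 2 sets did not overlap, but the first BTG1 shRNA prednisolone array was close to the controls. H3C2 differed by 2.13 (adjusted p = 0.0885) under vehicle and 1.35 (adjusted p = 0.284) under prednisolone. Under prednisolone it was called in 1 alternative, without that array (2.57, adjusted p = 0.00732). Under vehicle it was called in 6 alternatives at the same difference (adjusted p = 0.00558 to 0.0392), among them without either BTG1 shRNA prednisolone array, which enter that comparison only through the shared spread. H3C12, another H3 gene, was at 9.03, 9.67, 9.79 and 10.21 against 10.81, 10.31, 9.11 and 10.32, with a difference of 1.21 under vehicle (adjusted p = 0.108).

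Over all 54 clusters the median difference was 0.22 under vehicle, against -0.15 over all clusters, and -0.23 under prednisolone, against 0.04. The number above zero was 34 of 54 under vehicle (63%, against 39.3% of all clusters) and 15 of 54 under prednisolone (27.8%, against 57.9%). The arrays of the groups did not overlap for 27 clusters in the higher direction and 16 in the lower under vehicle (24.5% and 34.3% of all clusters), and for 7 and 22 under prednisolone (28.4% and 21.5%). The sign of the difference went from above zero under vehicle to below it under prednisolone in 22 of the 54, a count that was not taken over all clusters. The prednisolone values rest on 1 array: without the first BTG1 shRNA prednisolone array 29 clusters were above zero and 25 below, the median was 0.01 (all clusters -0.03), and 3 were called higher and 8 lower.

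That array stood apart from its partner in the histone genes. On it 51 of the 54 clusters were lower than on the second BTG1 shRNA prednisolone array, against 37.3% of all clusters, with a median difference of -0.67 against 0.10, and 17 were lower by more than 1. In the other groups 29, 33 and 21 of 54 were lower on the first array (38.8%, 35.3% and 41% of all clusters), with medians of -0.02, -0.06 and 0.08. The median histone level was 7.56 on this array and 8.27 to 8.91 on the other 7. The mean of the 27 S-phase genes was 8.74 against 9.01 on its partner, that of 17 G2/M genes 8.24 against 8.64, and that of 12 other histone genes 7.15 against 7.06. The interquartile range of all clusters was 3.39 against 3.67, and it was 2.95 on the first control vehicle array, the narrowest. The part of these in the histone values was not tested.

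**Figure D3:**
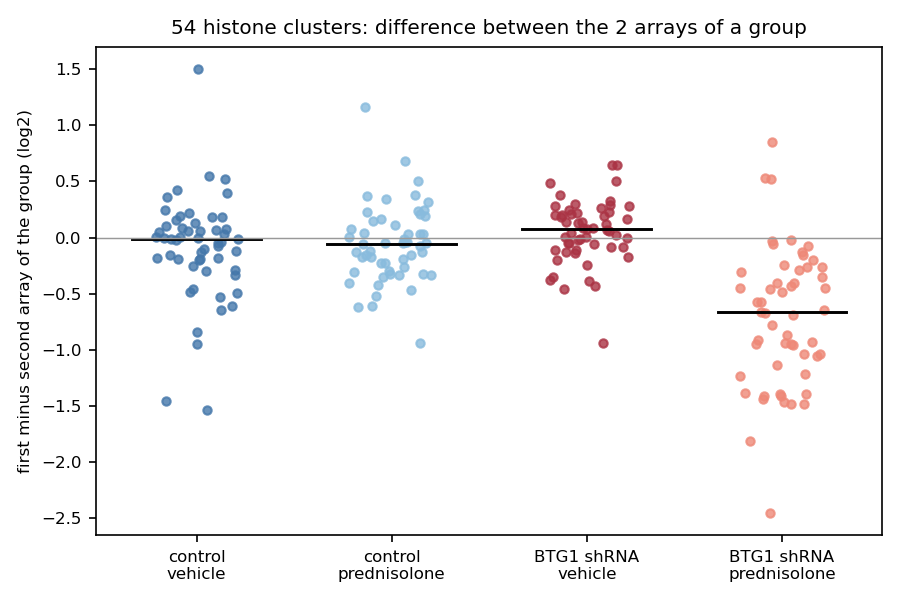
The first minus the second array of each group (log2, vertical axis) for the 54 histone clusters, 1 point for each cluster, in the 4 groups. In the BTG1 shRNA prednisolone group 51 of 54 points lie below zero, with a median of -0.67, while the medians of the other groups are -0.02, -0.06 and 0.08.

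Prednisolone changed no histone cluster past the threshold in the control cells. The test called 0 of 54 (limma), against 1.52% of all clusters, 0.928% higher and 0.587% lower. At an unadjusted p below 0.05 there were 6 of the 54, against 2526 of all 17881 clusters. Most differences were above zero: 40 of 54 (74.1%, against 33.7% of all clusters), with a median of 0.20 against -0.16. The arrays of the 2 groups did not overlap for 27 clusters in the higher direction and 4 in the lower (15.3% and 26.4% of all clusters). The median over all clusters moved from -0.16 to -0.05 with quantile normalization and to -0.04 with each array centred, and the histone median from 0.20 to 0.14 and 0.32.

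H2BC3 had the largest difference with prednisolone in the control cells, 1.79 (95% interval 0.61 to 2.96, adjusted p = 0.173), and its 2 prednisolone values given above were both higher than its 2 vehicle values. The difference of H2BC21 was 0.91 (adjusted p = 0.0782). These 2 clusters were called without the second control vehicle array, at 2.55 (adjusted p = 0.0344) and 1.05 (adjusted p = 0.0452), and H2BC21 was also called with quantile normalization (0.87, adjusted p = 0.0455). The cluster H2AC14;H2AC13 was dim and had a difference of 1.64 (adjusted p = 0.173), with 2.33 and 3.28 under vehicle, 4.42 and 4.46 with prednisolone, and 3.61, 3.41, 2.92 and 4.31 on the BTG1 shRNA arrays. H1-5, a linker histone, was at 9.27 and 10.72 under vehicle, 10.78 and 11.10 with prednisolone, and 10.92, 10.54, 9.31 and 10.69 on the BTG1 shRNA arrays, and differed by 0.95 (adjusted p = 0.464). Its lowest values were on the first control vehicle and the first BTG1 shRNA prednisolone arrays. All 9 H3 clusters were above zero, from 0.02 to 0.65, and 5 of 6 H1 clusters were, while H4 was split, 6 against 5. The lowest differences were those of H2BC26 (-0.74, adjusted p = 0.493), H2AC25 (-0.59, adjusted p = 0.364) and H4C7 (-0.36, adjusted p = 0.482). That of H2BC26 became 0.01 without the first control vehicle array.

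On the arrays labelled BTG1 shRNA, prednisolone likewise changed no histone cluster past the threshold. The test called 0 of 54 (limma, 0 at an unadjusted p below 0.05) and 0% of all clusters, of which 186 had an unadjusted p below 0.05. Here 45 of the 54 were below zero and 9 above (16.7%, against 58.1% of all clusters), with a median of -0.20 against 0.03. The arrays did not overlap for 5 clusters in the higher direction and 8 in the lower (18% and 10.5% of all clusters). Without the first prednisolone array 35 were above zero and 19 below, and the median was 0.07 (all clusters -0.01), so the direction turned with that array. The largest differences were those of H2AC8 (-0.86), H3C12 (-0.85) and H1-5 (-0.74) and, on the other side, of H2BC6;H2BC9 (0.52), H1-1 (0.44) and H1-6 (0.36), all with an adjusted p of 1. H2BC6;H2BC9 was at 2.85, 2.76, 2.69 and 2.32 on the control arrays and 2.33, 2.39, 3.30 and 2.45 on the others, and H1-1 was at 3.82, 3.46, 3.86 and 3.48 against 3.11, 3.54, 3.73 and 3.80. Both are dim. On the BTG1 shRNA arrays their prednisolone values lie above their vehicle values, while the ranges of the 2 shRNAs overlap.

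**Figure D4:**
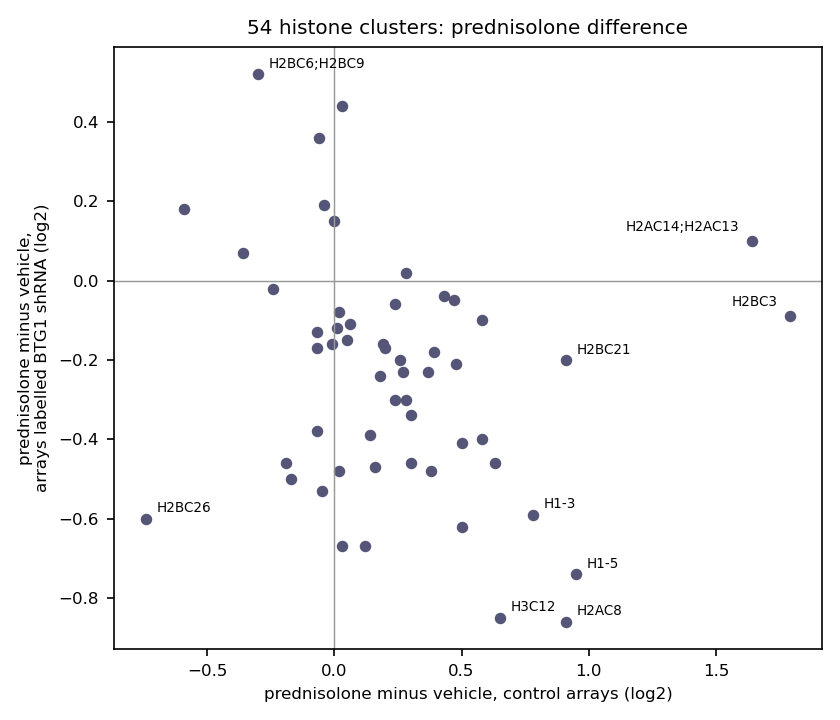
The prednisolone minus vehicle difference (log2) of the 54 histone clusters in the control arrays (horizontal axis) and the arrays labelled BTG1 shRNA (vertical axis), 1 point for each cluster. Most points lie to the right of zero (40 of 54) and below it (45 of 54); the direction of the latter turns without the first BTG1 shRNA prednisolone array.

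Whether the response differed between the shRNAs was tested as the difference of the 2 effects. It called 0 of 54 (limma), against 0.134% of all clusters, 0.028% higher and 0.106% lower. At an unadjusted p below 0.05 there were 6 of the 54, against 1664 of all 17881 clusters. The difference was above zero for 9 of 54, against 65.2% of all clusters, and below it for 45, with a median of -0.49 against 0.20 over all clusters, and without the first BTG1 shRNA prednisolone array it was below zero for 31, with a median of -0.09 (all clusters 0.15). The lowest values were those of H2BC3 (-1.87, adjusted p = 0.52), H2AC8 (-1.77, adjusted p = 0.469) and H1-5 (-1.68, adjusted p = 0.537), and the highest those of H2BC6;H2BC9 (0.81), H2AC25 (0.77) and H4C7 (0.42). H2BC3 was among the lowest values of the array on the BTG1 shRNA arrays, where a response may not be measurable, so its value rests on the control arrays and does not compare the 2 responses. In 4 clusters the arrays did not overlap in either shRNA, with the prednisolone arrays above the vehicle arrays in the control cells and below them in the others: H2BC21 (0.91 and -0.20), H2BC7 (0.24 and -0.30), H2AC8 (0.91 and -0.86) and H1-3 (0.78 and -0.59). For H2AC8 this rests on a gap that does not show at the 2 decimals printed, where the second vehicle and the second prednisolone array of the BTG1 shRNA are both at 7.56. The same order held in 2.17% of all clusters. The reverse order was found in 1 histone cluster, against 4.86% of all clusters.

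The genes whose proteins drive histone transcription, process histone mRNA and place histones on DNA were measured on the same arrays. The calls below (limma) are those between the shRNAs. Over all clusters 8.46% were higher and 6.21% lower under vehicle, and 10% and 7.51% under prednisolone. Of 9 genes of histone transcription, 0 were called under vehicle and 2 (22.2%) were higher under prednisolone. These were CDC25A, a phosphatase that activates cyclin-dependent kinases (1.12, adjusted p = 0.0228), and E2F1, a transcription factor of S-phase entry (0.74, adjusted p = 0.0245). In the control cells they differed by -0.70 and -0.82 with prednisolone, and neither was called. E2F1 was at 8.54 and 8.38, then 7.77 and 7.52 there, and at 8.37 to 8.46 on the BTG1 shRNA arrays. Of 17 genes of histone mRNA processing and decay 3 (17.6%) were higher under vehicle. ERI1, the exonuclease that trims and degrades the stem-loop end, differed by 2.42 (SE 0.29, adjusted p = 0.00118). LSM10, a subunit of the U7 particle that cuts histone pre-mRNA, differed by 1.19 (adjusted p = 0.0172) and LSM1, a decay factor, by 1.63 (adjusted p = 0.024). Under prednisolone ERI1 was again higher (1.56, SE 0.29, adjusted p = 0.00838) and LSM11, also of the U7 particle, lower (-0.88, adjusted p = 0.0459), each 5.88% of the list. The median of this list was 0.42 under vehicle and -0.11 under prednisolone, against -0.15 and 0.04 over all clusters.

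Between the shRNAs (limma), of 20 histone chaperones and assembly factors 1 was higher under vehicle, the H3-H4 chaperone ASF1A (2.33, adjusted p = 0.0286). Also 1 was lower, TONSL, which binds new H4 (-1.01, adjusted p = 0.0291). Each is 5% of the list, against 8.46% higher and 6.21% lower over all clusters. Under prednisolone CABIN1, of the HIRA complex (0.87, adjusted p = 0.0214), and IPO4, an importer of H3-H4 (0.81, adjusted p = 0.0424), were higher. They make 10% of the list, the same share as the 10% over all clusters. In the control cells IPO4 differed by -0.77 with prednisolone and was not called. Of 12 histone genes outside the rule, such as the variants made throughout the cell cycle, 0 were called in any of the 5 comparisons, with medians of -0.15 and -0.12 between the shRNAs. At an unadjusted p below 0.05 there were 1 and 2 of them between the shRNAs, against 5021 and 4908 of all 17881 clusters.

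Replication genes were taken as a list of 27 S-phase genes. Between the shRNAs (limma), 2 were higher under vehicle (7.41%, against 8.46% of all clusters). These were GINS4 (0.89, adjusted p = 0.0273) and CDC45 (0.70, adjusted p = 0.0401), both of the replicative helicase. Only 1 was lower (3.7%, against 6.21%), TK1, thymidine kinase (-1.13, adjusted p = 0.00926). Under prednisolone TK1 alone was called (-1.22, adjusted p = 0.00553), which is 3.7% lower against 7.51% of all clusters. Of 17 G2/M genes UBE2C, which passes ubiquitin to mitotic proteins, was higher in both (0.68, adjusted p = 0.0372, and 0.76, adjusted p = 0.0213). TOP2A, a topoisomerase, was lower under prednisolone (-1.31, adjusted p = 0.0287). Each call is 5.88% of this list, below the share of all clusters called in the same direction. With prednisolone 0 genes of any of these lists were called in either shRNA. The medians in the control cells were 0.41 for G2/M, 0.03 for S phase and 0.10 for processing and decay, and on the BTG1 shRNA arrays -0.31, -0.27 and -0.30, against 0.20 and -0.20 for the histone clusters.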

How the data were processed

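The data are 8 Affymetrix Human Exon arrays with total RNA labelled with biotin. Probes were summarised over core meta-probe sets on hg18, per the labels, and the submitters' processing notes name Partek and RMA (robust multi-array averaging) without versions. The authors deposited log2 expression values per cluster, another unit than the plain log2 table planned for, since most decimal points were lost in the deposited table. Of 143048 values 153 kept a point. Points were restored behind digit 1, or behind digit 2 of values that start with 1 (137 of 432 histone values). No other scaling and no filter on low values was applied.

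Symbols came from the platform annotation. A linear model of 4 group means was fitted to all 8 arrays and 17881 clusters with limma 3.58.1 in R 4.3.3 (4 residual and 3.51 prior degrees of freedom), with Benjamini-Hochberg adjustment across the clusters in each of 5 contrasts and a threshold of 0.05. Tested on simulated data (17881 genes), a change of 2 was recovered in 77.5% for prednisolone in control cells and 71.2% on the BTG1 shRNA arrays. Between shRNAs it was recovered in 78.8% under vehicle and 70% under prednisolone. A change of 1 was recovered in 21.2%, 16.2%, 22.5% and 20%, in the same order. The simulation changed 80 genes by 1, 80 by 2 and 40 by 4 in each comparison. In the data 14.7% and 17.5% of all clusters were called between the shRNAs and 0% with prednisolone on the BTG1 shRNA arrays. The adjusted p depends on how many clusters change, so these rates need not hold for the data.

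The histone genes and the other lists were chosen with earlier results of these data known. Values per array are given for clusters called in any contrast, the highest of each class and the 3 largest differences each way in a contrast, and up to 4 genes by smallest p for other lists. Promoters and gene order are from RefSeq (GRCh38.p14); coordinates of the array's own build were not used. The number of arrays limits the precision.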

Additional observations from a re-analysis of the deposited data

How the results depend on the processing

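The 45 results for single histone clusters were recomputed 614 times under other scalings, filters, variance models and samples: 566 kept direction and side of the threshold, 38 lost the call, 9 gained it, and 1 turned sign (H2BC26 with prednisolone in control cells, from -0.74 to 0.01 without the first control vehicle array and to -1.50 without the second). The count of histone clusters called under vehicle, 13, was 6 when clusters that hold a value starting with 1 were not counted, and 7 to 16 with 1 array left out. Under prednisolone it was 12, then 4, and 10 to 16. With prednisolone in control cells it was 0, and 1 with quantile normalization (H2BC21), 2 with the replicate block (H2BC21 and H2BC3), and 0 to 2 with 1 array left out. The counts of 6 and 4 come from the same fit with 24 of the 54 clusters taken out, so no call changed there. The cause of the other changes was not tested. With 1 array left out, the median histone difference ran from -0.61 to 0.01 between the shRNAs under prednisolone, from -0.62 to 0.07 for prednisolone on the BTG1 shRNA arrays and from -0.82 to -0.09 for the difference of effects; the ends rest on the first and second BTG1 shRNA prednisolone arrays. An arm left with 1 array was assumed to vary like the other groups.

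Same-numbered arrays correlated at 0.01 to 0.59 in their deviations from the group means, and with 2 numbers a comparison the numbers were not taken as pairing. With the replicate block 17 histone clusters were called under vehicle (8 higher, 9 lower) and 14 under prednisolone (3 and 11). Over all clusters the calls moved from 271 to 755 with the replicate block and to 16 when only the 2 groups were fitted for prednisolone in control cells (40 to 770 with 1 array left out), from 2623 to 4553 with the block under vehicle (1289 to 5958 with 1 array left out), to as few as 1746 from 3134 under prednisolone without the second control prednisolone array, and from 24 to 14, 39 and 96 for the difference of effects with centring, the other variance model and the block. With 1 array left out the latter was 0 to 24: 0 without any 1 of 5 arrays, 7 without the first control prednisolone array, and 24 and 15 without the first and the second control vehicle array. The histone medians kept their sign under both scalings in all 5 contrasts, while the median of all clusters moved by over 0.1 in 4.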
